A study of Homo sapiens and Mus musculus with 21 samples.

Results

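The 10 genes described here encode heat shock chaperones of the cytosol and the mitochondrion: HSPA8, HSPH1, HSPA1A, HSPA1B, HSP90AA1, HSP90AB1, DNAJB1, DNAJA1, HSPD1 and HSPE1. They were listed by symbol and found among the 19848 genes of an RPKM table, in which reads are scaled for gene length and library size, and the 23037 genes of a normalised count table, and their mouse counterparts were read in both thymus matrices. All 10 are listed in each table and matrix, 10 passed the filter on low values in the RPKM table and 9 passed it in the normalised count table. The study addressed DHX15, an RNA helicase of splicing and ribosome assembly, in acute leukemia. There were 21 samples, of mouse thymus and of CUTLL1, a human cell line established from T-cell acute lymphoblastic leukemia (T-ALL). CUTLL1 cells carried a lentiviral hairpin against GFP (shGFP), shDHX15-1 or shDHX15-2 (3 libraries each), or were treated with DMSO or ciclopirox, an antifungal that chelates iron (3 libraries each, 5 µM as the table is named). RNA immunoprecipitation (RIP) used a DHX15 antibody (2 libraries), IgG (1) and input (1). Total thymocytes came from 6-week-old Dhx15fl/fl mice (1 library, called flox) and Dhx15 KO mice (1 library). The labels used here name no Cre driver, so whether cells other than T-lineage cells also lost the gene is not stated.

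Cells use these proteins as a folding relay. J-domain proteins such as DNAJA1 and DNAJB1 hand unfolded clients to HSP70 proteins and start their ATP cycle, HSPH1 ejects the ADP that ends it, and HSP90 takes over clients such as kinases and steroid receptors. HSPD1 and its lid HSPE1 form the chaperonin cage of the mitochondrial matrix. HSPA8 and HSP90AB1 are the constitutive members of their families, HSPA1A, HSPA1B and DNAJB1 are classical heat-inducible genes, and the transcription factor HSF1 acts on many of them through heat shock elements, which are inverted repeats of the unit nGAAn. T-ALL cells divide fast, and dividing cells are known for high chaperone levels.

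Library totals were 59507040 to 62432503 reads in genes with the hairpins and 32451469 to 37177509 with DMSO or ciclopirox. DHX15 RNA checked the labels: it was 43.4 ± 0.649 RPKM with shGFP (SD, n = 3), 17.0 ± 0.435 with shDHX15-1 and 16.5 ± 0.361 with shDHX15-2, and the hairpins did not differ from each other beyond their spread (log2 difference −0.04, SE 0.03, limma adjusted p = 0.200). Of 6 T-ALL markers 5 are in the RPKM table, all at 2.88 RPKM or more. Of 10 markers of other cells 2 are listed there, and their sum was 26.1 to 27.2 RPKM with shGFP, 39.9 to 42.0 with shDHX15-1 and 62.4 to 63.6 with shDHX15-2. Most of it was CD79A, a B-lineage gene. The part of that rise in the chaperone results was not tested. DMSO library 1 stood apart from libraries 2 and 3 (chi-square per degree of freedom 38.2 and 39.1, against 3.44 between those and 14.3 to 27.5 among ciclopirox libraries). In bulk RNA, fewer cells with a transcript and less of it per cell cannot be told apart. The labels do not say whether replicates were cultured apart, and each p-value is therefore about the spread of these libraries alone, possibly a technical one.

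The sequences before the start sites were searched for heat shock elements, and no element searched lay before all 10 members. The letters searched were GAANNTTC and TTCNNGAA, which are each their own reverse complement, and the longer GAANNTTCNNGAA with its other strand TTCNNGAANNTTC, which contains both. The longer element lay in the 250 bases before an annotated start (RefSeq, GRCh38.p14) of HSPA8, HSP90AA1, HSP90AB1 and HSPD1, 4 of 10 genes, against 0.557% of 27305 genes. GAANNTTC alone lay in such a window before 8 of 10, all but HSPH1 and HSPE1, against 7.05% of genes. The HSPE1 window (chr2:197500129-197500378) stops short of the HSPD1 element given below, which lies further from the HSPE1 start. Genes with several starts had several windows, 16 for the 10 members and 35116 for the 27305 genes. Capitals mark the matched letters in 30 bases around each element, printed 5′ to 3′ on the gene's strand. The start of HSPA8 used here (123062136) is also an internal one, and both HSPA8 elements lie inside the gene span.
HSPA8, chr11:123062171-123062200, minus strand, first capital 55 bases before the start: gcgggccccTTCTGGAAGGTTCtaagatag
HSPA8, chr11:123062346-123062375, minus strand, 230 bases before the start: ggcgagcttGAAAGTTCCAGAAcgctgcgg
HSP90AA1, chr14:102087112-102087141, minus strand, 88 bases before an internal start: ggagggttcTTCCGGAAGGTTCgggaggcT
HSP90AB1, chr6:44247769-44247798, plus strand, 165 bases before an internal start: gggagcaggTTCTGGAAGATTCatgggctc
HSP90AB1, chr6:44247822-44247851, plus strand, 112 bases before the same start: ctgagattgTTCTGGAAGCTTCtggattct
HSPD1, chr2:197500061-197500090, minus strand, 245 bases before an internal start: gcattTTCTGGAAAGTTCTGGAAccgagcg
DNAJB1, chr19:14518456-14518485, minus strand, 77 bases before an internal start: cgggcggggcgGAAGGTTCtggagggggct
DNAJB1, chr19:14518426-14518455, minus strand, 47 bases before the same start: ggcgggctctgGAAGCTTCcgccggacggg
DNAJA1, chr9:33025064-33025093, plus strand, 198 bases before the start: aaagggctccaGAAGATTCcacgagcgccg

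HSPA1A and HSPA1B are neighbours on chromosome 6, 9795 bases apart. Their 250 bases before the start are shown whole: 235 of 251 aligned columns were identical (93.6%), including the GAANNTTC match in capitals. These bases lie before the start, and the likeness of the transcribed parts, which matters for counting reads, was not computed.
HSPA1A, chr6:31815293-31815542, plus strand: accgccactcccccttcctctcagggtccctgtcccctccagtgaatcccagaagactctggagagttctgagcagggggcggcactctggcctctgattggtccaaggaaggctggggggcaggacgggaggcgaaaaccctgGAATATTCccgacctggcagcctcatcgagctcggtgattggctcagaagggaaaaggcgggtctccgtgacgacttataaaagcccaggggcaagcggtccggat
HSPA1B, chr6:31827488-31827737, plus strand: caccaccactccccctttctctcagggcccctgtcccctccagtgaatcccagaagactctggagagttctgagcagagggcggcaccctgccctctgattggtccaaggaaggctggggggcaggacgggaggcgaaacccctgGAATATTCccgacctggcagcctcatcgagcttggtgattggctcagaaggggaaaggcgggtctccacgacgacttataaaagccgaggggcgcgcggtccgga
Both hold a TATAAA box, found before no other member and before 13.0% of all genes. A match is a description of these letters, and factor binding was not measured here.

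The hairpins asked how these transcripts change when T-ALL cells lose DHX15. All 10 were lower with shDHX15-1 and all 10 were lower with shDHX15-2 (limma on log2(RPKM + 1) over 15022 genes, Benjamini-Hochberg adjusted p under 0.05). Of all genes tested, 28.9% were called lower with shDHX15-1 and 30.1% with shDHX15-2. The members' median log2 fold change was −0.79 with shDHX15-1 and −0.30 with shDHX15-2, while the median of all genes was 0.09 and 0.03. In no member did the 3 libraries of a hairpin overlap the 3 of shGFP, which also held, in the lower direction, for 29.9% and 32.0% of all genes. Both comparisons share the shGFP libraries and are given side by side. The share of all reads in genes that fell on the 10 members was 0.695% ± 0.0062 with shGFP (SD, n = 3), 0.348% ± 0.00267 with shDHX15-1 and 0.566% ± 0.00205 with shDHX15-2. Among all calls with shDHX15-1, 61.1% were rises under the deposited scaling and 46.0% after median-centring; the members stayed lower under both.

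**Figure D1:**
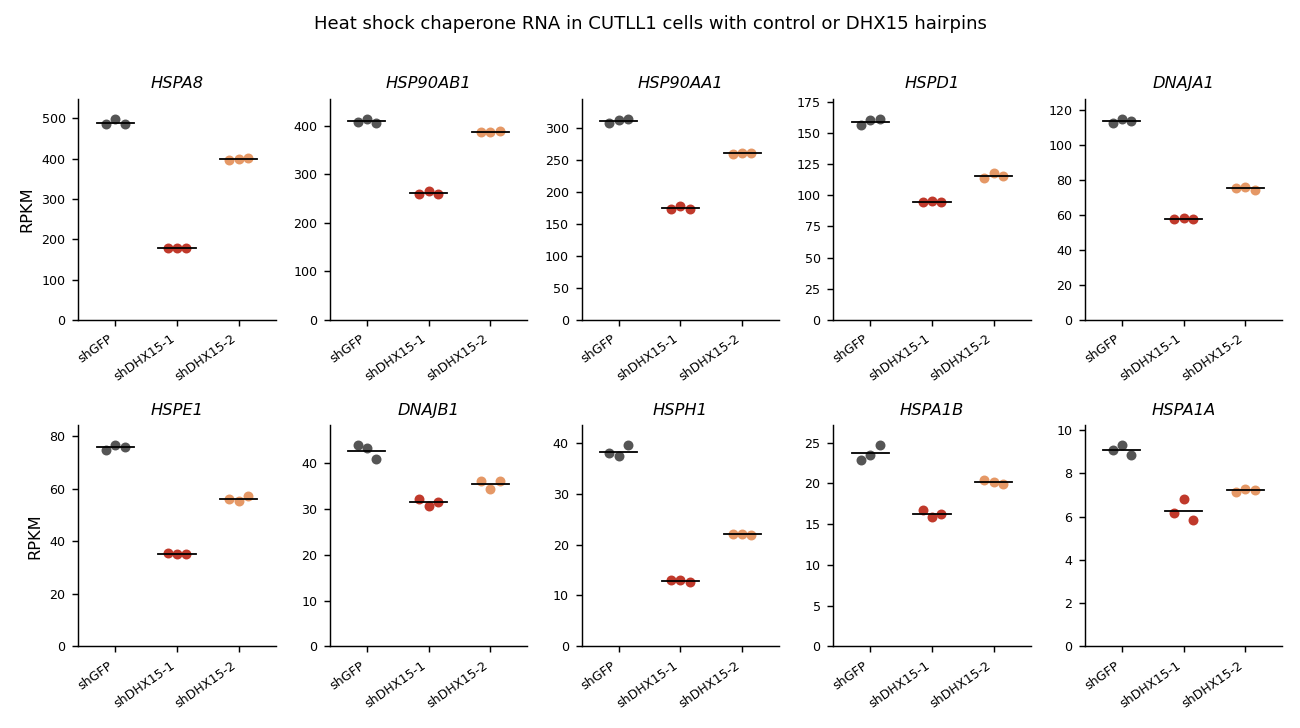
RPKM (y axis, from 0, scale differs by panel) of each chaperone RNA in CUTLL1 cells with shGFP, shDHX15-1 or shDHX15-2; points are the 3 libraries of a group and lines their means. Every panel shows shGFP highest and shDHX15-1 lowest, and in the HSP90AB1 panel shDHX15-2 (94.7% of the shGFP mean) lies close to shGFP.

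HSPA8 (chr11:123057489-123062462, minus strand), the constitutive cytosolic HSP70, had the highest level per length of the 10. It was at 486, 498 and 485 RPKM in the shGFP libraries, at 179, 179 and 179 with shDHX15-1 and at 396, 399 and 401 with shDHX15-2. The groups were far apart from each other and tight within: shDHX15-1 kept 36.6% of the shGFP mean and shDHX15-2 kept 81.4%. On the log2(RPKM + 1) scale HSPA8 changed by −1.45 with shDHX15-1 (SE 0.02, limma adjusted p = 4.97e-11) and by −0.30 with shDHX15-2 (adjusted p = 6.54e-07). Its fall with shDHX15-1 ranked 29th from the bottom of all 15022 genes. HSPH1 (chr13:31134973-31162388, minus strand), the HSP110 nucleotide exchange factor of HSP70, ranked 26th. HSPH1 was at 38.1, 37.3 and 39.5 RPKM with shGFP, at 12.9, 13.0 and 12.7 with shDHX15-1 and at 22.2, 22.1 and 22.0 with shDHX15-2. It showed the deepest fall of the 10 with each hairpin, −1.50 (SE 0.02, limma adjusted p = 3.70e-10) and −0.77 (adjusted p = 2.60e-08).

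The inducible HSP70 genes had the lowest levels per length of the set. HSPA1B (chr6:31827738-31830254) was at 22.9, 23.5 and 24.6 RPKM with shGFP, at 16.7, 15.8 and 16.2 with shDHX15-1 and at 20.5, 20.2 and 19.9 with shDHX15-2. HSPA1A (chr6:31815543-31817942) was at 9.06, 9.29 and 8.87 RPKM, at 6.18, 6.82 and 5.83, and at 7.13, 7.27 and 7.22. The levels of this pair are uncertain, because reads may fall on either copy, and the likeness of their transcribed parts was not computed. Summed to 1 feature, the pair was 32.7 ± 0.799 RPKM with shGFP (SD, n = 3), 22.5 ± 0.456 with shDHX15-1 and 27.4 ± 0.243 with shDHX15-2. The sum changed by −0.52 (SE 0.02, limma adjusted p = 1.19e-07) and −0.25 (adjusted p = 1.87e-05), so the fall did not depend on how reads were split between the copies.

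The J-domain partners of HSP70 differed in how far they fell. DNAJA1 (chr9:33025273-33039907, plus strand), which serves constitutive HSP70, was at 113, 115 and 114 RPKM with shGFP, 57.5, 58.3 and 57.5 with shDHX15-1 and 75.5, 76.3 and 74.6 with shDHX15-2. It kept 50.6% and 66.1% of the shGFP mean, and changed by −0.97 (SE 0.02, limma adjusted p = 5.14e-10) and −0.59 (adjusted p = 1.45e-08). DNAJB1 (chr19:14514769-14560391, minus strand), the heat-inducible HSP40, was at 43.9, 43.3 and 41.0 RPKM, at 32.3, 30.8 and 31.6, and at 36.1, 34.4 and 36.2. With shDHX15-1 it fell least of the 10, by 0.43 on the log2 scale (SE 0.03, limma adjusted p = 2.60e-06), and with shDHX15-2 it fell by 0.26 (adjusted p = 1.03e-04).

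The HSP90 genes followed HSPA8 in level per length. HSP90AB1 (chr6:44246194-44253883, plus strand), the constitutive isoform, was at 408, 414 and 405 RPKM with shGFP, 260, 265 and 258 with shDHX15-1 and 387, 386 and 389 with shDHX15-2. With shDHX15-2 it kept 94.7% of the shGFP mean, the smallest change in the set (log2 −0.08, SE 0.02, limma adjusted p = 0.00218), although the groups did not overlap. With shDHX15-1 it changed by −0.65 (adjusted p = 3.61e-09). HSP90AA1 (chr14:102080742-102139749, minus strand), the inducible isoform, was at 308, 313 and 314 RPKM, 174, 177 and 173, and 259, 260 and 261. Its change was −0.83 (SE 0.02, limma adjusted p = 1.04e-09) and −0.26 (adjusted p = 1.47e-06).

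The mitochondrial chaperonin genes lie head to head on chromosome 2 with 104 bases between them. HSPD1 (chr2:197486584-197500274, minus strand), the HSP60 subunit of the cage, was at 156, 160 and 161 RPKM with shGFP, at 94.3, 95.6 and 94.6 with shDHX15-1 and at 114, 118 and 115 with shDHX15-2. HSPE1 (chr2:197500379-197503449, plus strand), the HSP10 lid, was at 74.7, 76.4 and 76.0 RPKM, at 35.7, 34.9 and 34.9, and at 55.9, 55.3 and 57.2. Neither gene's groups overlapped. HSPD1 changed by −0.74 and −0.46 (SE 0.02, limma adjusted p = 5.06e-09 and 1.50e-07), and HSPE1 by −1.08 and −0.43 (SE 0.02, limma adjusted p = 6.55e-10 and 2.25e-07). HSPE1 overlaps the readthrough gene HSPE1-MOB4, which was counted with nearly as many reads (9023 to 9541 against 8882 to 9412 in shGFP), so the same fragments may stand under both names and the level of HSPE1 is uncertain.

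The order of the 10 levels in shGFP was HSPA8, HSP90AB1, HSP90AA1, HSPD1, DNAJA1, HSPE1, DNAJB1, HSPH1, HSPA1B and HSPA1A. No neighbours in that order overlapped among their 3 libraries. With shDHX15-1, HSP90AB1 (261 ± 3.27 RPKM, SD, n = 3) stood above HSPA8 (179 ± 0.398), whose values were reversed in shGFP (409 ± 4.07 against 489.6 ± 7.48).

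The hairpins differed from each other in every member, although DHX15 itself did not. All 10 were higher with shDHX15-2 than with shDHX15-1 (limma, adjusted p under 0.05), against 23.2% of all genes called in that direction. Of all calls in this comparison 38.0% were rises under the deposited scaling and 54.1% after median-centring. The largest difference was that of HSPA8, 1.15 on the log2 scale (SE 0.02, limma adjusted p = 9.93e-10), followed by HSPH1 with 0.73 and HSPE1 with 0.66. HSP90AA1 and HSP90AB1 each differed by 0.57, DNAJA1 by 0.38, HSPA1B by 0.30 and HSPD1 by 0.28. The smallest differences were those of HSPA1A, 0.18 (SE 0.05, limma adjusted p = 0.00909), and DNAJB1, 0.17 (SE 0.03, adjusted p = 0.00170). The groups overlapped in none of the 10, as in 26.1% of all genes in the same direction. CD79A moved with the hairpins too, and its part in these differences was not tested.

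**Figure D2:**
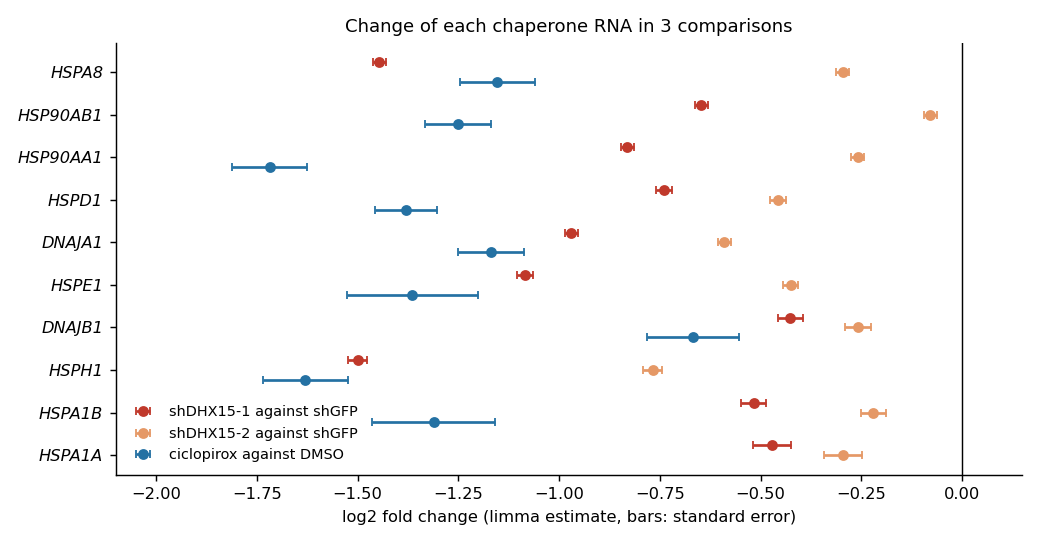
Log2 fold change (x axis, limma estimate with standard error bars) of each chaperone RNA, ordered by level in shGFP, for both hairpins against shGFP and for ciclopirox against DMSO; HSPA1A has no ciclopirox point because it failed the filter. All points lie below 0, and HSPA8 has the largest distance between the hairpins (−1.45 and −0.30).

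Ciclopirox asked whether a small molecule moves the same transcripts in the same cells. All 9 members tested were lower with ciclopirox than with DMSO (limma on log2(normalised count + 1) over 16825 genes, adjusted p under 0.05), against 25.0% of all genes called lower. The median log2 fold change was −1.31 for the 9 and −0.02 for all genes. Library groups did not overlap in any of the 9, as in 28.6% of all genes in the lower direction. The members took 1.17% ± 0.00578 of reads in genes with DMSO (SD, n = 3) and 0.512% ± 0.0120 with ciclopirox. DHX15 was also lower, at 15832 ± 1171 and 9467 ± 661 normalised counts. Markers of other cells listed in this table (6 of 10) summed to 982 to 1321 normalised counts with DMSO and 1287 to 1666 with ciclopirox, nearly all CD79A, and their part in the result was not tested. Normalised counts are not per length, so levels are compared only within a gene.

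HSP90AA1 fell furthest of the 9. It was at 110272, 119583 and 119792 normalised counts with DMSO and at 36722, 31721 and 38038 with ciclopirox, a change of −1.72 (SE 0.09, limma adjusted p = 4.14e-07). HSP90AB1 was at 83002, 75726 and 75142 against 33061, 33439 and 31734, and changed by −1.25 (SE 0.08, limma adjusted p = 1.40e-06). Both isoforms thus fell by more than with either hairpin in their own comparisons, which were made in another table and were not tested against each other. HSPH1 was at 17369, 20742 and 20807 normalised counts with DMSO and at 6437, 5671 and 6930 with ciclopirox, so 32.3% of the DMSO mean was left (log2 −1.63, SE 0.11, limma adjusted p = 1.25e-06).

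HSPA8 was at 160362, 137411 and 137325 normalised counts with DMSO and at 66847, 66838 and 61561 with ciclopirox (log2 −1.15, SE 0.09, limma adjusted p = 4.65e-06). DMSO library 1 was the highest of the 6, and without it the change was −1.08. DNAJA1 was at 17548, 17544 and 17075 against 8239, 7382 and 7612 (log2 −1.17, limma adjusted p = 2.07e-06). DNAJB1, the J-domain partner that heat induces, was again the least changed: 7819, 6258 and 6293 against 4247, 4709 and 3844 (log2 −0.67, SE 0.11, limma adjusted p = 7.11e-04).

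HSPD1 was at 58123, 55587 and 55185 normalised counts with DMSO and at 22226, 21206 and 21452 with ciclopirox (log2 −1.38, SE 0.08, limma adjusted p = 4.88e-07). HSPE1 had few reads in this table, 245 to 322 with DMSO and 110 to 132 with ciclopirox, where its readthrough partner had 29 to 33 and 18 to 21. Its normalised counts were 296, 320.0 and 276 against 115, 125 and 105 (log2 −1.36, SE 0.16, limma adjusted p = 6.57e-05). The inducible HSP70 pair was split unevenly as well. HSPA1B was at 547, 575 and 544 against 192, 269 and 215 (log2 −1.31, SE 0.15, limma adjusted p = 5.88e-05). HSPA1A was at 29.0, 7.95 and 5.11 against 1.91, 9.45 and 3.83, with overlapping groups, and was not tested alone. The sum of the pair changed by −1.32 (SE 0.16, limma adjusted p = 6.52e-05).

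**Figure D3:**
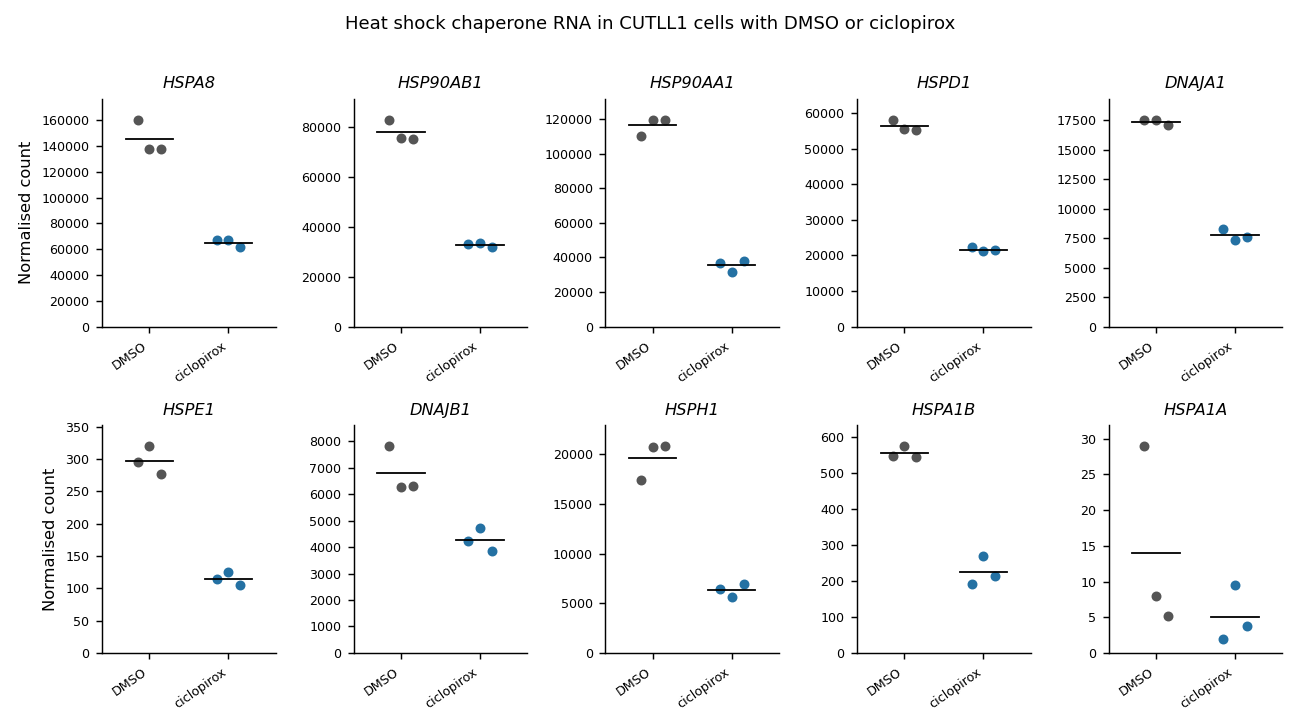
Normalised counts (y axis, from 0, scale differs by panel) of each chaperone RNA in CUTLL1 cells with DMSO or ciclopirox; points are the 3 libraries of a group and lines their means. In 9 panels all ciclopirox points lie below all DMSO points, and HSPA1A, at 1.91 to 29.0, is the exception.

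Of 62 other chaperone genes in 8 lists, 54 were tested with the hairpins and 57 with ciclopirox. With shDHX15-1, 36 were lower and 9 higher, with a median log2 fold change of −0.25, where 28.9% of all genes were called lower and 45.4% higher. With shDHX15-2, 30 were lower and 10 higher (median −0.16), against 30.1% and 35.6% of all genes. With ciclopirox 38 were lower and 4 higher (median −0.53), against 25.0% and 23.5%. The rest passed no threshold. All 8 genes of TRiC, the cytosolic chaperonin that folds actin and tubulin, were lower with shDHX15-1, with shDHX15-2 and with ciclopirox, with medians of −0.60, −0.38 and −1.05. TCP1 changed by −0.98 and CCT3 by −0.96 with shDHX15-1, and CCT5 by −1.44 and CCT6A by −1.37 with ciclopirox (limma adjusted p at most 9.90e-07 for these 4). Of 11 HSP90 cochaperone genes 11, 9 and 9 were lower and none was higher. STIP1, the adaptor between HSP70 and HSP90, changed by −1.09 and AHSA1, the activator of the HSP90 ATPase, by −1.06 with shDHX15-1; AHSA1 (−0.85) and FKBP4 (−0.73) led with shDHX15-2, and CHORDC1 (−1.73) and FKBP4 (−1.72) with ciclopirox.

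Apart from the small heat shock proteins, the other lists had called genes in both directions in at least 1 comparison. Of 4 HSP110 and HSP70 relatives tested with the hairpins 3 were lower and 1 higher with shDHX15-1 and 2 lower and 1 higher with shDHX15-2, and of 6 tested with ciclopirox 5 were lower and none higher. Among them HSPA4, a close relative of HSPH1, fell in all 3 comparisons (−0.86, −0.46 and −1.56), while HSPA4L was higher with both hairpins (0.20 and 0.31) and lower with ciclopirox (−0.55). Of 9 J-domain partners tested with the hairpins 3 were lower and 2 higher with shDHX15-1, led by DNAJB6 (−0.56) and DNAJB4 (0.42), and 2 were lower and 3 higher with shDHX15-2. Of 10 tested with ciclopirox 4 were lower and 2 higher, where DNAJA2 changed by −1.05 and DNAJB5 by 0.96. Of 6 exchange factors 4 were lower and 2 higher with shDHX15-1, 2 lower and 1 higher with shDHX15-2, and 4 lower and none higher with ciclopirox; HSPBP1 fell in all 3 (−0.76, −0.43 and −0.98) and BAG4 was higher with both hairpins (0.41 and 0.55) and lower with ciclopirox (−0.63). Of 11 mitochondrial proteostasis genes 5, 7 and 6 were lower and 3, 3 and 1 higher. HSPA9, the HSP70 of the mitochondrial matrix, changed by −0.55 and −0.41 with the hairpins, and LONP1, a matrix protease, by 0.47 with ciclopirox. HSF1 itself was 29.0 RPKM with shGFP, 28.0 with shDHX15-1 and 30.1 with shDHX15-2 and passed the threshold against shGFP with neither hairpin. Between the hairpins it was higher with shDHX15-2 by 0.098 on the log2 scale (SE 0.034, limma adjusted p = 0.0313). Of the 4 genes in the list of HSF factors 2 were lower and 1 higher with shDHX15-1, none lower and 1 higher with shDHX15-2, and 2 lower and 1 higher with ciclopirox. HSF2 changed by −0.23 with shDHX15-1 and −0.41 with ciclopirox, and HSBP1, an inhibitor of HSF1, by −0.20 and −0.49. HSF4, a factor of the same family, was higher with both hairpins (1.16 and 0.71) and with ciclopirox (1.65). HSPB1, the only small heat shock gene tested, was called with shDHX15-2 alone (0.27), and its difference between the hairpins was 0.25 (limma adjusted p = 0.00259).

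**Figure D4:**
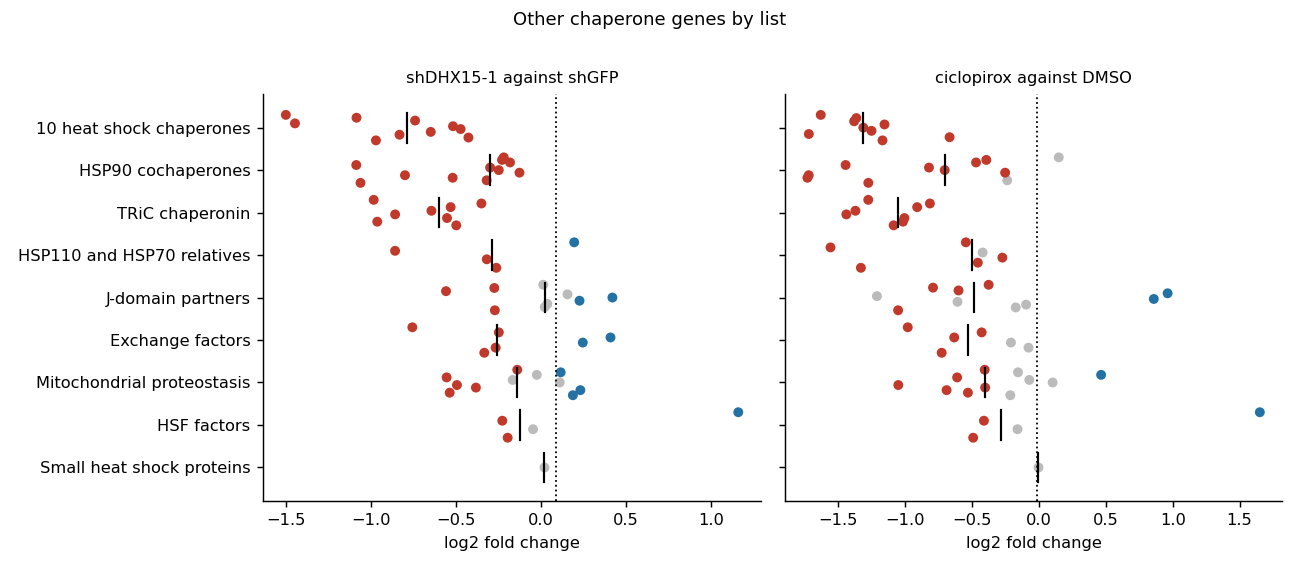
Log2 fold change (x axis) of each tested gene by list for shDHX15-1 against shGFP (left) and ciclopirox against DMSO (right); red points were called lower, blue points higher and grey points neither, black bars are list medians and the dotted line is the median of all genes tested. The 10 heat shock chaperones have medians of −0.79 and −1.31, and HSF4 is the blue point furthest to the right in each panel.

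Over the 15 bulk libraries, each taken as its log2 value minus the mean of its own controls, the likeness of the members was taken as a Pearson correlation, with HSPA1A and HSPA1B summed. The correlation of a member with the mean of the others was highest for HSPE1 (0.991) and HSPD1 (0.979) and lowest for HSPA8 (0.891), whose fall was deeper with shDHX15-1 than with ciclopirox. These 15 points fall into 5 groups, so the values describe likeness of group means. Genes lower in all 3 comparisons tended to have high values: the median was 0.903 over 695 such genes and 0.0128 over all 3703 genes compared. By the same measure, 8 genes outside the chaperone lists were most like the mean profile: PMM2 (0.997), BZW2 (0.997), ADAMTS1 (0.995), NDUFAF4 (0.995), MRTO4 (0.993), SNRPD1 (0.992), PPA1 (0.991) and NOP14 (0.991). PMM2, the phosphomannomutase of N-glycosylation, changed by −0.87, −0.32 and −1.27 with shDHX15-1, shDHX15-2 and ciclopirox. ADAMTS1, a secreted metalloprotease, changed by −1.59, −0.64 and −2.01.

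RIP asked which transcripts are bound by DHX15. The deposited list holds 4499 peaks with the authors' fold and FDR. It names no build, and the processing notes name both hg38 and hg19 for human data. Gene spans are those of GRCh38.p14, which was assumed to match, and the peak positions and counts below rest on that. A peak lay wholly inside 1 of 10 members, DNAJB1, against 22.1% of 11360 genes tested in the RPKM table and placed on a chromosome, and 18.9% of the 2254 genes with at least 20 RPKM in shGFP. The DNAJB1 peak spans 247 bases at chr19:14517521-14517767 on the gene's own minus strand, beginning 170 bases after the nearest annotated start and 630 after the next. Its fold was 1.65 and its FDR 2.16e-04 in the authors' deposited table, where the median fold of all peaks was also 1.65. Any overlap with the gene span also gave 1 of 10, against 24.2% of genes. Under a fold of at least 2, no member held a peak, against 3.98% of genes. The nearest peak to HSP90AB1 lay 962 bases outside the gene on the opposite strand. Among the other chaperone genes 9 of 60 placed genes held a peak, in CCT5, LONP1, BAG5, SUGT1, STUB1, YME1L1, DNAJB2, DNAJB5 and DNAJB12. Any overlap gave 10 of 60, the added gene being HSF4, with peaks of fold 2.71 and 2.66 on its own strand that reach past the gene span. The list was deposited once for all RIP libraries, so it carries no replicate error.

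In the thymus the question was whether the same RNAs differ when Dhx15 is deleted in the animal. There was 1 library per genotype, so no test was possible. Levels are CPM, the UMIs of a gene summed over cells and scaled by the total of those cells, with exact Poisson intervals for levels and an exact binomial interval for ratios, both at 95% and covering counting error only. The flox library kept 8818 of 9434 barcodes and the knockout library 7261 of 8484, and 17 barcodes occurred in both libraries, 14 of them among cells kept. Median depths were 3710 and 7197 UMIs. Dhx15 was at 181 CPM in flox and 100.2 in knockout cells (ratio 0.553, interval 0.536 to 0.570), a 3′ or 5′ tag that need not lie in the deleted part.

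Over all cells kept, no member was past 1.5-fold in either direction, where 7.55% of 8331 genes were higher and 14.5% lower by that size. That count of 0 depends on the setting: 1 to 3 members were past 1.5-fold higher under 4 of the 5 alternatives, with Hspe1 at 1.65 to 1.74 in those 4. The share of all genes past 1.5-fold was not computed under the alternatives, so these counts have no background beside them. Hspe1 was at 361 CPM in flox and 540 in knockout (ratio 1.49, interval 1.47 to 1.52), Hspd1 at 274 and 378 (1.38), and Hsp90ab1 at 1904 and 2529 (1.33). These were the highest ratios among members with over 100 UMIs, and Hsp90aa1 followed at 1.18. Hspa8 was at 1483 and 1404 CPM (0.946), Dnajb1 at 107 and 88.3 (0.829), Dnaja1 at 646 and 474 (0.734) and Hsph1 at 58.0 and 42.6 (0.733, interval 0.697 to 0.772). Hspa1a and Hspa1b, which heat and dissociation of tissue are known to induce, were nearly absent, with 10 and 30 UMIs in flox and 17 and 47 in knockout cells. Of the immediate early genes that dissociation also raises, Fos was at 4.24 and 3.69 CPM, Jun at 6.78 and 9.90, Atf3 at 0.140 and 0.228, Ier2 at 58.2 and 35.7 and Egr1 at 99.2 and 20.1. Within classes, Fos was at 24.7 CPM in flox and 94.1 in knockout signalled-like cells and Jun at 15.7 and 6.34, and Jun was at 16.1 and 31.7 in DN2 to DN3-like cells. The part of these genes in the chaperone ratios was not tested.

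The libraries differed in their make-up. Cells were clustered without the members, the other chaperone genes and Dhx15, and classes were named "-like" from marker genes or other leading genes. Cluster 2, most of the knockout double positive-like cells, and clusters 1, 9 and 10 had none of the marker genes among their leading genes. S phase-like cells made up 4.14% of flox and 18.4% of knockout cells, and DN2 to DN3-like cells 1.13% and 14.0%. Double positive-like cells, a class named after CD4+CD8+ thymocytes, made up 62.6% and 22.8%. Chaperone levels differed between these classes within a library. Among named classes of at least 50 flox cells, Hspa8 was at 2771 CPM in S phase-like cells, 1818 in G2 and mitosis-like cells, 1623 in DN2 to DN3-like cells and 770 in double positive-like cells. Between these last classes came NK and innate-like (1455), CD4 single positive-like (1429), signalled-like (1415) and mature single positive-like cells (1415), and from DN2 to DN3-like to mature single positive-like cells each interval overlapped that of the next class. Among the same classes Hsp90ab1 (3728 CPM), Hsp90aa1 (2027), Hspe1 (799), Hspd1 (727) and Hsph1 (124) were also highest in S phase-like cells. The unnamed cluster led by Cpa3 and Kit (37 flox and 331 knockout cells) stood higher still, with Hspa8 at 3122 CPM in flox and 2331 in knockout, Hspe1 at 1001 and 842 and Hsph1 at 171 and 74.4. Dnaja1 was highest among named classes in signalled-like cells, which carry genes of T-cell receptor signalling, at 980 CPM in flox and 940 in knockout.

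Within classes, Hspa8 and Hsph1 were lower in knockout cells in each of the 7 classes with at least 50 cells per library. Hsph1 had ratios of 0.447 in NK and innate-like cells, 0.453 in DN2 to DN3-like, 0.466 in CD4 single positive-like, 0.470 in G2 and mitosis-like, 0.502 in S phase-like, 0.543 in signalled-like and 0.788 in double positive-like cells. The 6 lowest are past 1.5-fold. In S phase-like cells this was 124 CPM in flox (interval 117 to 132) and 62.2 in knockout (59.4 to 65.2), from 1035 and 1808 UMIs, while in CD4 single positive-like knockout cells it rested on 17 UMIs. Hspa8 had ratios of 0.547 in G2 and mitosis-like (1818 and 994 CPM), 0.590 in CD4 single positive-like, 0.610 in signalled-like and 0.665 in S phase-like cells, all past 1.5-fold. It was at 0.700 in double positive-like, 0.757 in DN2 to DN3-like and 0.823 in NK and innate-like cells.

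Of 57 ratios of a member in a class, 11 were past 1.5-fold lower and none was past 1.5-fold higher: 6 for Hsph1, 4 for Hspa8 and 1 for Hsp90aa1 (0.607 in G2 and mitosis-like cells, 1138 and 691 CPM). Without cells over 3 times their library's median UMI count, which leaves 86 of 365 flox and 731 of 1335 knockout S phase-like cells, 7 of 48 were lower and 1 was higher. No share of all genes was computed for that setting, and the shares that follow are those of the main setting. The background share of genes past 1.5-fold lower was 2.34% in S phase-like (2 of 9 members), 4.62% in DN2 to DN3-like (1 of 8), 5.14% in double positive-like (0 of 8), 7.95% in G2 and mitosis-like (3 of 8), 10.2% in signalled-like (2 of 8), 13.4% in CD4 single positive-like (2 of 8) and 14.8% in NK and innate-like cells (1 of 8). Genes past 1.5-fold higher, with no member among them, made up 2.65%, 7.17%, 8.98%, 6.40%, 8.77%, 12.9% and 13.0% of genes in the same classes. Dnajb1 was between 0.995 and 1.24 in all 7 classes, and Hspe1 between 0.852 and 1.23. Dhx15 had ratios of 0.379 in S phase-like and 0.876 in DN2 to DN3-like cells, so its own RNA also differed between classes. Hspd1, Hspe1, Hsp90aa1 and Hsp90ab1 were higher in knockout over all cells, and in S phase-like cells their ratios were 0.814, 0.920, 0.730 and 0.930. Without the deep cells the same ratios were 1.53, 1.496, 0.901 and 1.29, so the direction of Hspd1, Hspe1 and Hsp90ab1 turned, and those of Hspa8 and Hsph1 in S phase-like cells were 0.710 and 0.875.

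Double positive-like cells were clusters 0 and 1 in flox (3581 and 1908 cells) and mostly cluster 2 in knockout (1454 cells). Of these clusters only cluster 0 had a double positive marker, Rag1, among its leading genes. Hspa8 was at 796 CPM in flox and 664 in knockout cells of cluster 0, at 730.0 and 589 in cluster 1, and at 530 in knockout cells of cluster 2. The Hspa8 level was thus lower in knockout within clusters 0 and 1 too, but from few knockout cells. These were 92 cells with 162 Hspa8 UMIs in cluster 0 and 111 cells with 216 in cluster 1. Hsph1 had only 4 and 5 knockout UMIs there. A cluster mostly of 1 library may be that library rather than a type, and the same holds for the unnamed cluster led by Tubb2b (34 flox and 1325 knockout cells), where Hspa8 was at 707 CPM in knockout cells. In double positive-like cells Dnajb1 (1.24), Hspe1 (1.23) and Dnaja1 (1.08, interval 1.037 to 1.116) were above 1, where the median ratio of all genes was 1.05.

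**Figure D5:**
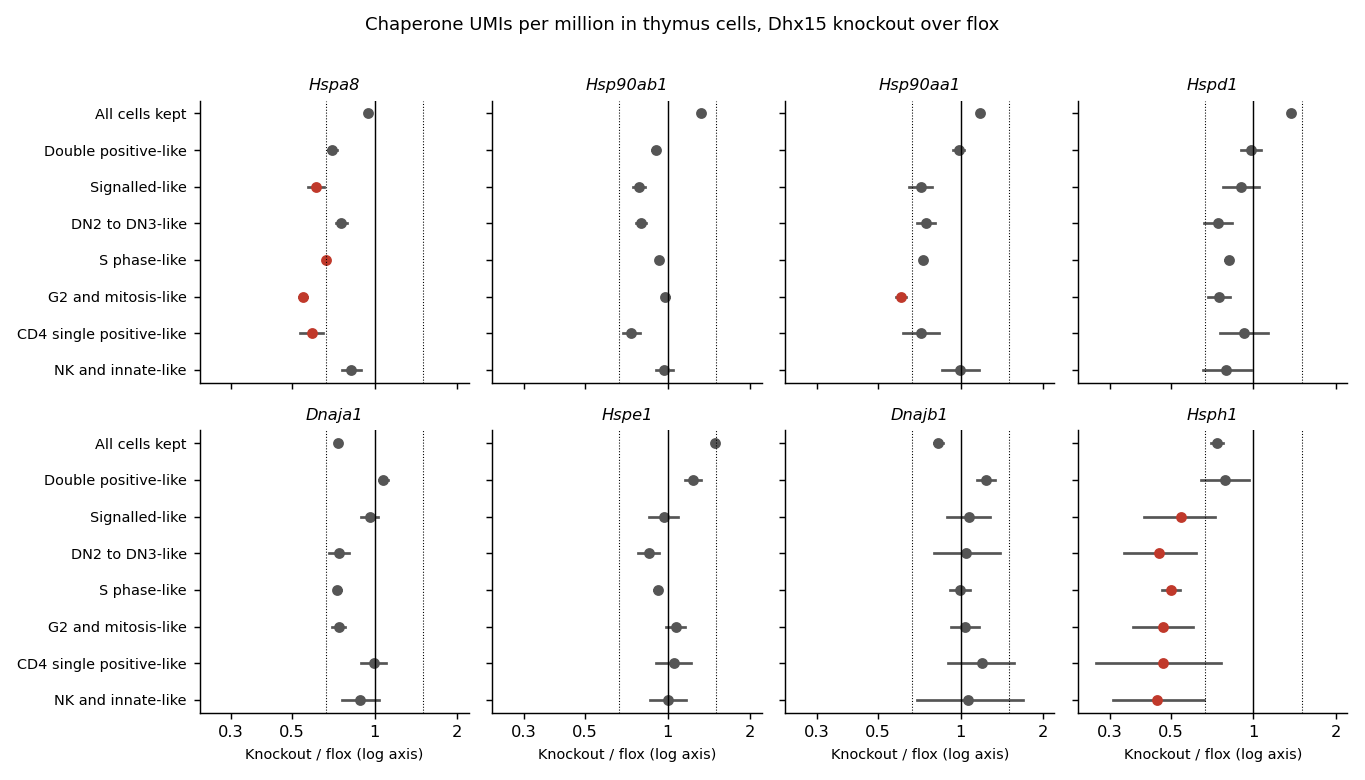
Ratio of CPM in knockout over flox thymus cells (x axis, log scale) for 8 chaperone genes over all cells kept and in 7 classes; points are ratios, bars exact 95% counting intervals, dotted lines 1.5-fold, and red points lie past 1.5-fold lower. The red points are in the Hspa8, Hsp90aa1 and Hsph1 panels, and the bar of Hsph1 in CD4 single positive-like cells (0.267 to 0.763) is the widest of its panel.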

How the data were processed

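The 10 members and all gene lists were chosen with earlier results of these data known. CUTLL1 poly(A)+ libraries and 10x thymus libraries were made per the labels' protocols. Per the submitters' processing notes, which assign no roles, the authors used the builds mm10, hg38 and hg19 and the tools Scanpy 1.7.1, Cell Ranger 6.0.2, DESeq, DESeq2 1.32.0, STAR in versions 2.7.5c and 2.4.1.7, and FastQC 0.11.9. Sampling times and strand setting: not given in the sources used here. RPKM of the hairpin libraries are as deposited by the authors, and 100% of values were whole reads within a tolerance of 1e-05, for 19748 genes (the other 100 were at 0). The ciclopirox table holds a normalised signal, counts divided by size factors, as deposited by the authors, with whole reads recovered for 100% of values (tolerance 0.01). Its log2 fold changes and p-values, deposited by the authors, were not used as a test. The peak list holds the authors' fold ratio, p-value, FDR and score per peak. Per the file headers, Cell Ranger 6.0.1 wrote the thymus matrices, which hold whole UMI counts.

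Groups follow the labels. limma 3.58.1 (trend) in R 4.3.3 tested log2(RPKM + 1) over all 9 libraries for genes of at least 1 RPKM in at least 3 libraries, and log2(normalised count + 1) for genes of at least 10 in at least 3 of 6, two-sided, with Benjamini-Hochberg adjustment over all genes tested and a threshold of 0.05. Fold changes of low genes are understated on these scales. Columns of the ciclopirox table give the group and not the replicate, so its library numbers are only the order of columns. edgeR 4.0.16 and DESeq2 1.42.0 on recovered reads were alternatives. The limma fits of both tables were tested on simulated data, and the edgeR and DESeq2 fits were not. All members were named, and of each list up to 2 called rises and 2 called falls per comparison; HSPE1-MOB4, HSF1, CD79A and peak genes were named after their values were seen. Cells with at least 500 genes and at most 10% mitochondrial UMIs were clustered (leidenalg 0.10.2, 1500 variable genes, 30 components, 20 neighbours, Leiden resolution 1). No doublet caller was run, and prior doublet removal is not stated in the labels. Thymus genes entered the background at 10 CPM or more in either library, and ratios needed over 3 UMIs on both sides. No pair of libraries in a group agreed within sampling noise, and each was kept as a replicate.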

Additional observations from a re-analysis of the deposited data

How the results depend on the processing

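All 550 log2 fold changes of single members recomputed under the alternatives for the bulk comparisons (pseudocount 0.1, no filter, median-centring, quantile normalisation, the replicate block, edgeR and DESeq2 on recovered reads, only the groups compared, and each library left out) kept their direction and stayed under the threshold. The counts of members called were 10 of 10 for each hairpin comparison under each of them, and 9 of 9 for the hairpins with HSPA1A and HSPA1B summed. For ciclopirox they were 9 of 9 under each of them but the fit without a filter, which HSPA1A also entered. The 550 changes cover only members tested in the main fits, so the change of HSPA1A with ciclopirox is not among them. Leaving out 1 library at a time gave counts of 10 to 10 for the hairpins and 9 to 9 for ciclopirox. The highest adjusted p was 0.0300, for HSPA1A between the hairpins. Median-centring moved the median log2 fold change of all genes with shDHX15-1 from 0.09 to −0.02, and members then changed by −1.61 to −0.53. Whether the replicate numbers pair the samples was not settled. Correlations of same-numbered libraries were low, −0.00061 to 0.0951, and many but not all libraries correlated best with their own number. With the replicate block 10 of 10 members were called in each hairpin comparison. All genes called lower with shDHX15-1 then numbered 4310, against 4340 without the block. No paired analysis was possible for ciclopirox because its columns carry no replicate number. For RIP, a fold of at least 2 left 0 members with a peak and any overlap left 1. In the thymus over all cells, members past 1.5-fold higher numbered 0, and 3 without cells over 3 times the median UMI count (Hspa1b, Hspd1 and Hspe1), 2 without ribosomal protein and mitochondrial genes in the total (Hspd1 and Hspe1), 2 with means over cells (Hspa1b and Hspe1) and 1 after thinning to 2000 UMIs (Hspe1). Ratios past 1.5-fold lower within classes numbered 11, and 7 without cells over 3 times the median, where 1 was higher (Hspd1 in S phase-like cells, 1.53). That setting limits each library by its own median (11130 UMIs in flox and 21591 in knockout) and leaves 23.6% of flox and 54.8% of knockout S phase-like cells and 48 of 60 flox NK and innate-like cells, too few for a ratio in that class. With 1 library per genotype and few Hspa1a and Hspa1b UMIs, these ratios have no replicate check. Shares of all thymus genes past 1.5-fold were computed in the main setting only.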
